A study of Mus musculus with 6 samples.

Results

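The cytosolic ribosomal protein genes are described here across bone marrow-derived macrophages (BMMs) that were cultured without RANKL (-R), with it (+R) or with it and a leaf extract (R+LE). The family was chosen with earlier results of these data known. Its members were taken by name, as symbols that start with Rpl or Rps followed by a digit, together with Rplp0, Rplp1, Rplp2 and Rpsa. Kinases whose names start with Rps6k and names marked as pseudogenes were left out. The deposited table held 89 such symbols among 24940 genes. Of these, 85 had a mean of at least 0.5 RPKM, the reads on a transcript scaled to its length in kilobases and to 1000000 mapped reads, out of 11595 genes that reached this level. They comprised 50 large subunit entries, 34 small subunit entries and Rps19bp1, which encodes a protein that binds a ribosomal protein and is not itself a subunit.

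BMMs are macrophage-like cells grown from mouse marrow, and RANKL is the cytokine that turns them into bone-resorbing osteoclasts. All 3 groups received M-CSF at 30 ng/mL, the growth factor on which these precursors depend, and were cultured for 3 days. The +R and R+LE groups also received RANKL at 100 ng/mL, and R+LE alone received LE, a methanol extract of Abeliophyllum distichum leaves, at 10 μg/mL. Each group had 2 libraries. The labels give C57BL/6 mice aged 6 to 8 weeks, whereas the methods of the study name ICR mice, so the strain is uncertain. No transgene or deletion is named in the labels, and whether the libraries of a group came from separate animals or cultures was not stated.

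The ribosome is built from ribosomal RNA, made by RNA polymerase I and III, and from about equal amounts of each ribosomal protein. The large subunit forms peptide bonds and the small subunit reads the mRNA. Most mRNAs of ribosomal proteins belong to the TOP class, which starts with a C at the cap followed by an unbroken run of C and T (an oligopyrimidine tract). Their translation is switched on and off together by mTORC1, in part through Larp1, which binds the tract when mTORC1 is inactive. RNA-seq measures the amount of these mRNAs and not their translation.

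The tract at the start of the mRNA is the sequence these genes are best known for, and it was read from the promoter windows of RefSeq (GRCm38.p6, the mm10 build). Each line below gives 30 bases of the coding strand, with the annotated start as base 11. Capitals mark the longest run of C or T that covers the start or begins within 5 bases after it. The first 7 genes had a tract of at least 8 bases and are shown for the range of their response to RANKL. The start of Rpl38 used here lies 201 bases upstream of the one in the deposited table.
Rpl28 (chr7:4792955-4792984, plus strand): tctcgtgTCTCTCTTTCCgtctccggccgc
Rps6 (chr4:86857348-86857377, minus strand): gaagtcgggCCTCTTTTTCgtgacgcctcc
Rplp2 (chr7:141447641-141447670, plus strand): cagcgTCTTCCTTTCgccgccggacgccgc
Rpl38 (chr11:114668570-114668599, plus strand): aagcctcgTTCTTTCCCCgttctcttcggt
Rps27 (chr3:90213629-90213658, minus strand): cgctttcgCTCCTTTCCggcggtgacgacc
Rps15a (chr7:118116128-118116157, minus strand): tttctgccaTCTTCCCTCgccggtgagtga
Rpl22l1 (chr3:28805498-28805527, plus strand): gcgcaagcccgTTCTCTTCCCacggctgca

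The next 5 genes are shown because their annotated start had no run of 5 bases. Among them, Rpsa, Rplp0 and Rps12 were higher with RANKL, and Rpl7l1 and Rps19bp1 were not called. A start that is off by a few bases moves a tract out of the searched place, so these lines do not show that the mRNA lacks one.
Rpsa (chr9:120127756-120127785, plus strand): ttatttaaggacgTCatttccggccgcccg
Rplp0 (chr5:115559457-115559486, plus strand): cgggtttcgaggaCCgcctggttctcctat
Rps12 (chr10:23787190-23787219, minus strand): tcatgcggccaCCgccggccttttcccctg
Rpl7l1 (chr17:46782637-46782666, minus strand): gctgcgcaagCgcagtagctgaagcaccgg
Rps19bp1 (chr15:80264287-80264316, minus strand): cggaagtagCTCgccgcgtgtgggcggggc

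A promoter window of 300 bases was found for 64 of the 85 genes. A gene with several annotated starts was counted once, by its longest run. A run of at least 5 C or T at the start occurred in 29 of them, or 45.3%, against 24.8% of all 27025 genes with a window. A run of at least 8 occurred in 21, or 32.8%, against 7.43% of all genes. The letters CGGAAG, the core recognised by ETS-family factors, were searched on either strand and occurred in 43 of the 64 windows, or 67.2%, against 18.8% of all genes and 37.3% of the genes tested here. These shares describe letters in a window and not sites in use.

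The libraries held between 29390762 and 34846201 mapped reads, recovered from the steps between RPKM values, and 74.2% to 80.7% of them lay on genes. The cell state was read from marker genes. The summed RPKM of 10 osteoclast markers was 49.0 and 50.6 in -R. It was 2212 and 1946 in +R, against 413.5 and 360.1 in R+LE, with Calcr and Oscar at 0 in both -R libraries. The summed RPKM of 8 macrophage markers was 6732 and 7319 in -R. It was 3455 and 2692 in +R, against 4206 and 3764 in R+LE, and none of these markers was at 0. The largest part of this sum was Lyz2, at 5062 and 5571 RPKM in -R. Of the 8 macrophage markers, 7 had lower values in +R than in -R, and Itgam had higher ones. In R+LE against +R, 6 had a log2 fold change above 0, of which 2 had an adjusted p below 0.05 by limma. Cd68 and Csf1r were below 0. The 8 neutrophil markers summed to 17.5 and 15.6 RPKM in -R and to at most 2.53 elsewhere. Lists of B, T and endothelial cell markers stayed at or under 2.47 RPKM, stromal markers lay between 8.48 and 16.4, and of 6 erythroid markers 4 were at 0 in every library. The part of these shifts in cell state in the values below was not tested. In bulk RNA, a change in the kinds of cells and a change in the RNA of each cell cannot be told apart.

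Ribosomal protein mRNAs were among the most abundant in all 3 groups. They made up 53 of the 100 tested genes with the highest mean RPKM and 73 of the top 200. Their mean level had a median of 645.0 RPKM, with quartiles at 452.4 and 855.1, against a median of 8.12 RPKM for all genes tested. Rpl28, Rps14, Rpl41, Rps2 and Rplp1 headed the list, with mean levels from 1086 to 1349 RPKM. At the other end, Rps15a, Rpl7l1, Rps19bp1, Rpl37rt and Rps4l had mean levels of 54.8, 41.3, 17.4, 2.98 and 1.37 RPKM. The low value of Rps15a is per kilobase of a kept transcript of 5127 nt, and that of Rps20, at 92.1 RPKM, is per kilobase of one of 3440 nt, against a median transcript length of 696 nt for the 85 genes. Counts over another transcript were not made, so the part of transcript length in the low levels of both genes was not tested.

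Of the 89 symbols, 4 did not reach 0.5 RPKM. Rpl10l, known from testis, had 0 reads in every library, which allows up to 3 reads in each. Rpl3l, known from muscle, had 0 to 7 reads per library, Rpl39l had 1 to 10 and Rpl32l had 2 to 4. Some entries cannot be separated from a neighbour. Rps27rt is placed by the deposited table over Rps27, so both entries hold the same reads, and with Rps27rt left out 77 of 84 genes were higher in +R. Counting ignored strand, and 19 of the 85 genes share exon bases with a gene on the other strand. In +R, 19 of these 19 and 59 of the other 66 were called higher than in -R, with median log2 fold changes of 0.76 and 0.74.

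The comparison of +R with -R asks how the ribosomal protein mRNAs respond to RANKL. Higher levels in +R were found for 78 of the 85 genes and lower levels for 0, by limma at an adjusted p below 0.05. Among all genes tested, 23.9% were higher and 21.5% were lower. The median log2 fold change of the 85 genes was 0.74, or 1.68-fold, against 0.05 for all genes tested. Only 4 of the 85, among them Rpl22l1, Rpsa and Rpl3, reached 2-fold, against 6.58% of all genes tested. That number was 13 without -R replicate 1, 10 without +R replicate 2 and 2 without -R replicate 2. Of the large subunit entries, 46 of 50 were higher at a median of 0.74, and of the small subunit entries 32 of 34 at a median of 0.75. The values of both groups did not overlap for 83 genes, with +R above -R for 81 and below it for Rps4l and Rps19bp1, where 40.3% and 35.0% of all genes tested were separated in these directions.

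**Figure D1:**
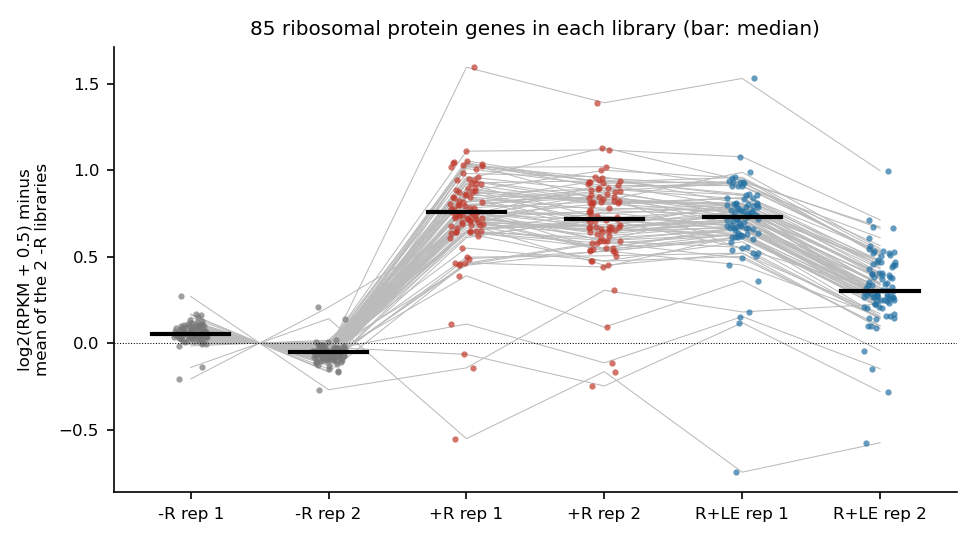
Each point is 1 of the 85 genes in 1 library, as log2(RPKM + 0.5) minus the mean of the 2 -R libraries, with lines that join the same gene and a bar at the median. The bars of both +R libraries and of R+LE replicate 1 stand at 0.76, 0.72 and 0.73, and the bar of R+LE replicate 2 stands at 0.30.

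As shares of the library, and with Rps27rt left out, these mRNAs held 3.76% and 3.43% of gene reads in -R. Their share was 6.10% and 6.32% in +R, against 5.92% and 4.89% in R+LE. The Rn45s entry, which covers the 45S precursor of ribosomal RNA, also differed between the groups. It took 6.83% and 4.97% of gene reads in -R. In +R it took 10.9% and 11.1%, and in R+LE it took 11.2% and 13.5%. The part of these reads in the result was not tested. With Rn45s left out of the depth, 80 genes were higher in +R, the median log2 fold change was 0.81 and 11 genes reached 2-fold.

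**Figure D2:**
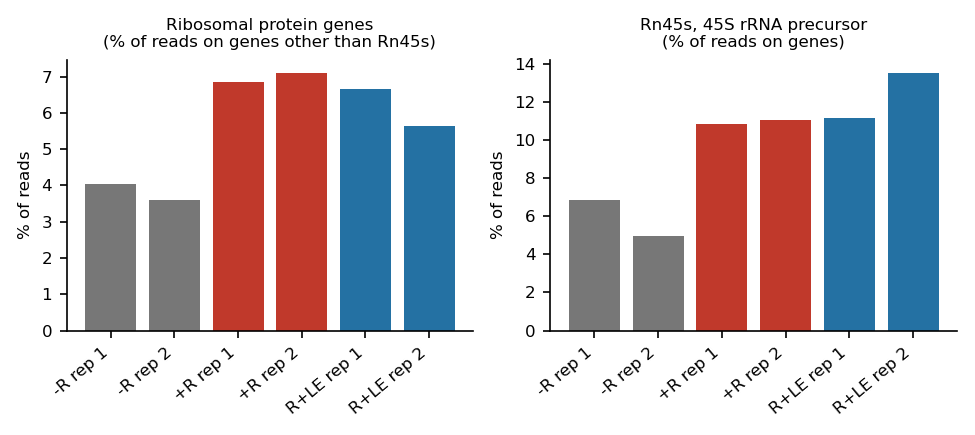
Bars give the share of reads held by the ribosomal protein genes, out of reads on genes other than Rn45s (left), and by Rn45s, out of reads on genes (right), in each library, with axes that start at 0. Rps27rt, which holds the same reads as Rps27, was left out, so 84 genes were summed. The ribosomal protein share stood at 4.04% and 3.61% in -R, at 6.85% and 7.11% in +R, and at 6.66% and 5.65% in R+LE.

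The most abundant members were higher in +R. Rpl28, a large subunit protein, was at 930.4 and 833.9 RPKM in -R, at 1619 and 1761 in +R, and at 1706 and 1247 in R+LE. Rps2, which lines the entry of the mRNA channel of the small subunit, was at 786.5 and 748.3 RPKM in -R, at 1514 and 1493 in +R, and at 1340 and 1064 in R+LE. For both genes all libraries with RANKL lay above both -R libraries. Their log2 fold changes in +R were 0.94 ± 0.22 (SE, adjusted p = 0.0023) and 0.97 ± 0.20 (adjusted p = 0.0011). Rps14 and Rps12 of the small subunit and Rpl41 of the large subunit, the shortest of these proteins, were higher by 0.83, 0.99 and 0.77 on the log2 scale. Rpl41 was at 767.8 and 1024 RPKM in -R and at 1290 and 977.5 in R+LE, so that these groups overlapped.

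The stalk of the large subunit recruits the elongation factors, and consists of Rplp0, which anchors it, and the acidic proteins Rplp1 and Rplp2. Rplp0 was at 610.4 and 553.2 RPKM in -R, at 1099 and 1018 in +R, and at 1040 and 809.7 in R+LE. Rplp1 was at 699.0 and 690.2 RPKM in -R, at 1417 and 1346 in +R, and at 1301 and 1060 in R+LE. Rplp2 was at 696.2 and 623.4 RPKM in -R, at 1012 and 1082 in +R, and at 964.9 and 812.8 in R+LE. All 3 stalk genes were higher in +R, by 0.86, 0.99 and 0.67 on the log2 scale, and their -R and +R values did not overlap.

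Rpl5 and Rpl11 join 5S ribosomal RNA before it enters the large subunit and, when assembly stalls, bind Mdm2. Rpl5 was at 242.3 and 225.0 RPKM in -R, at 442.3 and 384.8 in +R, and at 400.6 and 307.2 in R+LE, and was higher in +R by 0.82 ± 0.18 on the log2 scale. Rpl11 was at 684.0 and 582.0 RPKM in -R, at 884.5 and 910.8 in +R, and at 964.1 and 736.5 in R+LE. Its log2 fold change of 0.51 ± 0.20 just missed the threshold, with an adjusted p of 0.0502. The groups of Rpl11 were nevertheless separate, since every library with RANKL lay above both -R libraries.

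Rps6, the small subunit protein that S6 kinases phosphorylate, was at 373.6 and 347.0 RPKM in -R, at 691.7 and 633.2 in +R, and at 630.0 and 493.1 in R+LE. It was higher in +R by 0.88 ± 0.19 on the log2 scale. Rps27a, made as a fusion with ubiquitin, was higher by 0.67. The same direction was seen for subunits whose symbols the name rule does not take. Fau, a fusion that yields a small subunit protein, and Rack1, a scaffold on the small subunit, were higher in +R by 0.61 and 0.73 on the log2 scale.

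Of the genes that reached 2-fold, Rpl22l1 (chr3:28805508-28807424, plus strand), a paralog of Rpl22, was at 43.5 and 40.8 RPKM in -R, at 128.1 and 111.1 in +R, and at 122.5 and 84.5 in R+LE. Its log2 fold change of 1.49 ± 0.18 in +R had an adjusted p of 5.8e-06. Rpsa (chr9:120127766-120132369, plus strand), a small subunit protein also known as the laminin receptor, was at 479.6 and 473.3 RPKM in -R, at 1028 and 1034 in +R, and at 1005 and 780.8 in R+LE. Replicates of Rpsa differed little in -R and +R, and its log2 fold change was 1.11 ± 0.19 (adjusted p = 0.00024). Rpl3 (chr15:80077781-80083406, minus strand), whose protein reaches to the centre where peptide bonds form, was at 410.5 and 370.6 RPKM in -R, at 789.7 and 791.3 in +R, and at 732.0 and 559.8 in R+LE. Rpl3 was higher in +R by 1.02 on the log2 scale, close to the 2-fold line and just above Rplp1 at 0.99 and Rps12 at 0.99, which fell short of it.

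**Figure D3:**
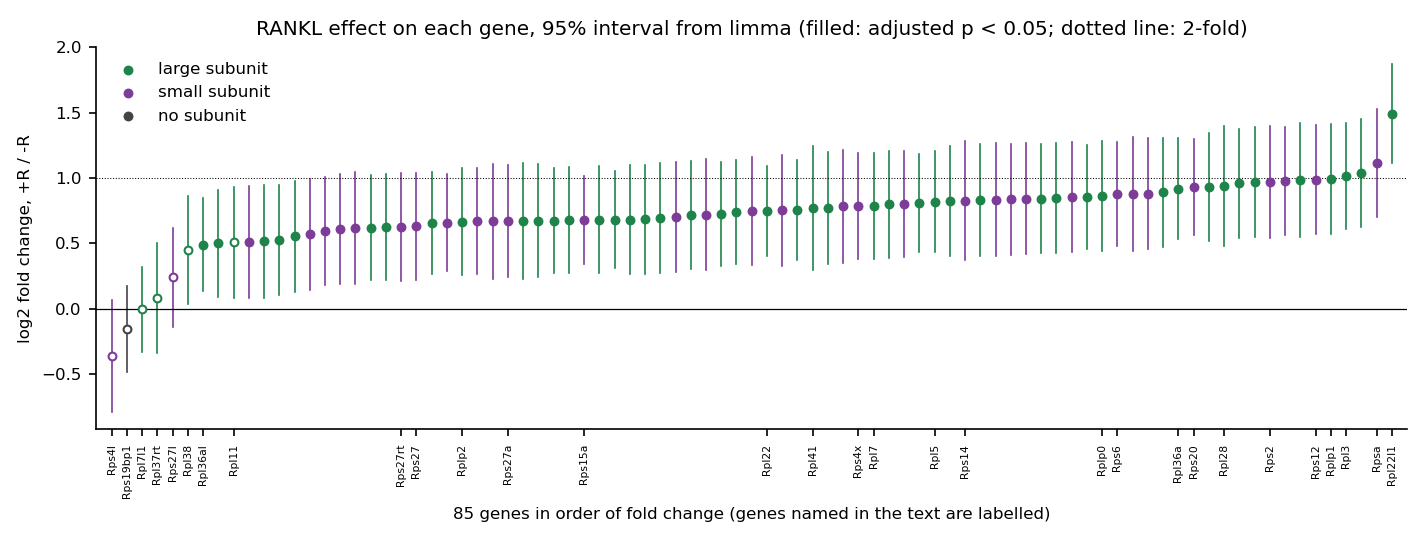
Points are the log2 fold changes of +R against -R for the 85 genes in rising order, with 95% intervals from limma, coloured by subunit and filled where the adjusted p was below 0.05. The genes run from Rps4l at -0.36 to Rpl22l1 at 1.49, and the 7 open points are Rps4l, Rps19bp1, Rpl7l1, Rpl37rt, Rps27l, Rpl38 and Rpl11.

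The 7 genes that were not called are mostly not core subunits. Without the paralogs, Rps19bp1 and the retrotransposed copy Rpl37rt, 75 of 77 genes were higher in +R, at a median of 0.76 on the log2 scale, and the values of all 77 were separate between the groups. The exceptions were Rpl11 and Rpl38. Rpl38, a large subunit protein needed for the translation of certain Hox mRNAs, was at 477.9 and 415.8 RPKM in -R, at 614.7 and 604.8 in +R, and at 688.6 and 513.3 in R+LE, with a log2 fold change of 0.45 ± 0.19 and an adjusted p of 0.070. Rps19bp1 was at 18.7 and 18.0 RPKM in -R, at 17.5 and 15.4 in +R, and at 19.95 and 15.02 in R+LE, with a log2 fold change of -0.16 ± 0.15 in +R (adjusted p = 0.43). Rpl37rt, at between 2.17 and 3.48 RPKM in all libraries, had overlapping groups.

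The count of genes called in +R rested on few libraries. It was 19 without -R replicate 2, 35 without -R replicate 1, 46 without +R replicate 1 and 55 without +R replicate 2, and 31 when genes with low values were kept in the fit. The median log2 fold change stayed between 0.68 and 0.80 when each library was left out. Short transcripts as a class differed between libraries: at 400 nt the trend of log2 RPKM with transcript length lay at -0.15 and -0.22 in -R, at 0.21 and 0.15 in +R, and at 0.13 and -0.13 in R+LE, relative to the mean over libraries. With that trend removed the median of the ribosomal protein genes was 0.54 and 73 genes were higher, while Rps19bp1 was called lower. Among the genes themselves the median was 0.69 for 36 transcripts under 600 nt, 0.72 for 29 of 600 to 1000 nt and 0.81 for 20 longer ones. Shares of all genes tested were not counted for these alternative fits.

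Paralogs did not keep a fixed ratio to the main form of the same protein. Rpl22l1 stood at 63.0% and 67.8% of the RPKM of Rpl22 in -R, at 117.3% and 103.4% in +R, and at 118.5% and 104.9% in R+LE. Both genes were higher in +R, and per length the paralog passed the main form in each library with RANKL. In reads it stayed below, at 1888 and 1637 against 7370 and 7245 in +R, over kept transcripts of 480 and 2197 nt. Over all annotated transcripts, exons of Rpl22l1 share 159 bases with exons of Gm33051 on the other strand. How many of these bases lie in the kept transcript was not computed. Reads of the pair cannot be told apart there without strand. The ratio was lower in +R for the other pairs. Rps27l, the paralog that p53 induces, stood at 32.9% and 30.1% of Rps27 in -R, at 24.96% and 23.0% in +R, and at 26.4% and 25.8% in R+LE. Rpl36al stood at 89.95% and 96.4% of the X-linked Rpl36a in -R, at 65.3% and 73.3% in +R, and at 67.0% and 70.1% in R+LE. For both pairs the -R ratios lay above those of all libraries with RANKL.

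Rps27l, Rpl7l1 and Rps4l were the paralogs not called in +R. Rps27l was at 159.3 and 143.8 RPKM in -R, at 198.4 and 161.3 in +R, and at 194.3 and 146.8 in R+LE, with a log2 fold change of 0.24 ± 0.18 in +R (adjusted p = 0.29). Rpl7l1 was at 42.3 and 40.1 RPKM in -R, at 44.5 and 38.0 in +R, and at 45.9 and 37.1 in R+LE, while Rpl7 was at 484.3 and 454.6 in -R, at 816.0 and 806.2 in +R, and at 796.3 and 619.9 in R+LE. Rpl7l1 thus moved from 8.74% and 8.82% of Rpl7 in -R to 5.45% and 4.72% in +R and to 5.76% and 5.99% in R+LE, and its own log2 fold change in +R was -0.0020 ± 0.15. Rps4l, a rare paralog of the X-linked Rps4x, was at 1.59 and 2.04 RPKM in -R, at 1.07 and 1.56 in +R, and at 0.876 and 1.05 in R+LE. Its values were lowest in R+LE, where the log2 fold change against -R was -0.66 ± 0.20 (adjusted p = 0.019). The kept Rps4l transcript is of the RefSeq non-coding class and held 26 to 67 reads per library. The other Rps4 gene, Rps4x, was higher in +R by 0.79 ± 0.19 on the log2 scale. Both members of a pair come from the same libraries, and 2 against 2 ratios cannot give an exact two-sided permutation p below 0.333.

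**Figure D4:**
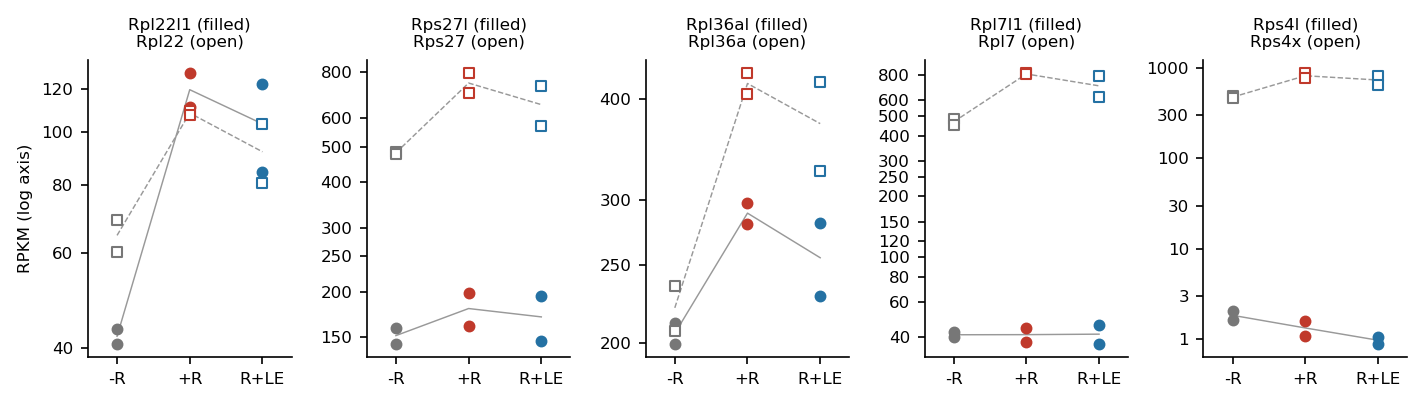
RPKM of 5 paralogs (filled circles) and of their main forms (open squares) in both libraries of -R, +R and R+LE, on log axes that differ between panels, with lines through the group means. Rpl22l1 crosses above Rpl22 in RPKM in the libraries with RANKL, and Rpl7l1 stays between 37.1 and 45.9 RPKM while Rpl7 is higher with RANKL.

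The comparison of R+LE with +R asks whether LE alters these mRNAs in the presence of RANKL. By limma, 0 of the 85 genes were called higher and 0 lower, where 5.19% and 6.86% of all genes tested were called. An unadjusted p below 0.05 was reached by 0 of the 85, against 2707 of all 11595 genes tested, and voom on the recovered reads also called 0. The median log2 fold change was -0.22, against -0.05 for all genes tested, and 82 of 85 values were below 0. The values of R+LE lay below both +R libraries for 28 genes, or 32.9% of the 85, against 29.5% of all genes tested. They lay above both for 0 genes, against 19.5%. At this spread between replicates the 95% interval of a typical member such as Rpl7 ran from -0.61 to 0.20, so a fall of up to 0.61 on the log2 scale cannot be set apart from none.

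For these genes the 2 R+LE libraries differed from each other more than the 2 of any other group. In R+LE replicate 1 the median over the 85 genes was -0.020 relative to the mean of +R, or 0.99-fold. In R+LE replicate 2 it was -0.41, or 0.75-fold. The medians over all genes tested were 0.0053 in replicate 1 and -0.11 in replicate 2. Of the 85 genes, 84 were below both +R libraries in replicate 2 and 28 in replicate 1, and the exception in replicate 2 was Rpl37rt. In replicate 2, 78 genes lay between the highest -R and the lowest +R value. The share of all genes tested that lay in these places in a single library was not counted. The chi-square of the replicates per gene, which is 1 for counting noise alone, was 285.2 for these genes in R+LE, 68.2 in -R and 57.9 in +R. All genes with at least 20 reads gave 28.03, 27.0 and 12.5. At the same fold difference this value grows with the number of reads, so it does not compare abundant genes with others. On the log2 scale the replicate differences had an SD over these genes of 0.10 in R+LE, 0.11 in -R and 0.13 in +R. Over all genes tested the SD was 0.31, 0.25 and 0.26. R+LE replicate 2 also had the highest share of Rn45s, at 13.5%, and the lowest share of reads on genes, at 74.2%, and the part of these in its values was not tested.

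Leaving out either library of R+LE changed what this comparison showed. Without replicate 1 the median log2 fold change against +R was -0.41, and without replicate 2 it was -0.020. A fit with 1 library in a group assumes that it varies like the other groups. Under quantile normalization 2 genes, Rpl28 and Rps2, were lower. Within -R, replicate 2 was lower than replicate 1 for 80 of the 85 genes with a median difference of -0.11, against 40.1% of all genes tested. Within +R it was lower for 55 with a median of -0.06, against 65.3% and a median of -0.08 for all genes tested. Within R+LE it was lower for 83 genes with a median of -0.39, against 69.1% of all genes tested. In -R and R+LE most members thus shifted the same way between replicates, and the median shift was largest in R+LE among the 3 groups.

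In R+LE against -R, which asks what remained of the RANKL response under LE, 43 of the 85 genes were higher and 1, Rps4l, was lower. Among all genes tested, 15.3% were higher and 19.0% were lower. The median log2 fold change was 0.52, or 1.43-fold, against -0.01 for all genes tested. The values were separate and higher in R+LE for 78 genes and lower for 1, against 31.2% and 34.3% of all genes tested. Rpl22l1 had the largest change at 1.26 ± 0.18 (adjusted p = 4.9e-05), and it alone reached 2-fold, which 3.92% of all genes tested did in this direction. Without R+LE replicate 1 it was 0 genes, and without R+LE replicate 2 it was 2. Rpsa, Rps12 and Rps20, a small subunit protein, were higher by 0.89, 0.80 and 0.77. Rps20 was at 62.5 and 56.5 RPKM in -R, at 122.7 and 105.4 in +R, and at 118.3 and 87.0 in R+LE.

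This count also moved with single libraries. It was 80 without R+LE replicate 2, 23 without R+LE replicate 1, 5 without -R replicate 1 and 1 without -R replicate 2, and Rps4l was no longer called without R+LE replicate 1 or without -R replicate 2. It was 72 by voom and 3 when genes with low values were kept in the fit, and in both Rps4l was not called lower. The median stayed above 0 in all of these, from 0.30 without R+LE replicate 1 to 0.73 without R+LE replicate 2. Shares of all genes tested were not counted for these fits either. Comparisons with +R and with -R share the R+LE libraries, and those of +R and R+LE with -R share the -R libraries, so they are not independent of each other.

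Genes with and without the start tract or CGGAAG had medians close to each other in +R against -R, and the difference was not tested. Genes with a run of at least 5 C or T had a median log2 fold change of 0.70 in +R, with 27 of 29 higher. Those with a window but no such run had a median of 0.72, with 31 of 35 higher. With CGGAAG in the window the median was 0.70 and 39 of 43 were higher, and without it the median was 0.77 and 19 of 21 were higher. Rps27rt, with a run of 6 and no CGGAAG, is among these genes. Its RPKM values are the reads of Rps27, which is counted too, while RefSeq places the promoter of Rps27rt on another chromosome. Among the genes printed above, Rpl22l1 at 1.49 and Rpl38 at 0.45 both had long tracts, and Rpsa at 1.11 and Rpl7l1 at -0.0020 had none at the annotated start.

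Most other mRNAs of the TOP class were also higher with RANKL. Of 23 such genes for translation factors and related proteins, 20 (87.0%) were higher in +R and 0 lower, with a median log2 fold change of 0.71. Pabpc1, the cytosolic poly(A)-binding protein, was at 327 and 412 RPKM in -R, at 927 and 925 in +R, and at 719 and 609.9 in R+LE, with a log2 fold change of 1.33 ± 0.19 in +R. Eef1b2, an exchange factor for elongation, was higher by 1.16, Eif4b, which aids initiation, by 1.07, and Eef2, the translocase, by 0.86. In R+LE against +R, 0 of the 23 were called. An unadjusted p below 0.05 was reached by 2 of them, against 2707 of all 11595 genes tested. Against -R, 15 were higher.

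Genes that make and assemble ribosomes are given beside the 23.9% and 21.5% of all genes tested that were higher and lower in +R. Of 54 assembly genes, 30 (55.6%) were higher in +R and 0 lower, with a median of 0.40. Npm1, a nucleolar chaperone, was at 245 and 253 RPKM in -R, at 672 and 587 in +R, and at 554 and 438 in R+LE. It was higher in +R by 1.33 on the log2 scale, as was Dkc1, the pseudouridine synthase that modifies ribosomal RNA, by 1.33. Imp3, part of the complex that processes small subunit RNA, was the 1 gene of the 54 called lower in R+LE against +R, at -0.61 ± 0.16 on the log2 scale (adjusted p = 0.017). Of 19 genes of RNA polymerase I and its factors, 7 (36.8%) were higher in +R, among them Polr1d at 0.96 and Polr1b at 0.84, and Taf1c was lower at -0.49. In R+LE against +R, 0 of these 19 were called, with 3 at an unadjusted p below 0.05, against 2707 of all 11595 genes tested.

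Of 17 known regulators of TOP mRNAs and ribosome production, 5 (29.4%) were higher in +R and 1 lower, at a median of 0.07, so that the share called higher was near that of all genes tested. Eif4ebp1, an inhibitor of initiation that mTORC1 phosphorylates, was at 28.6 and 28.6 RPKM in -R, at 70.2 and 63.9 in +R, and at 50.5 and 41.7 in R+LE. It was higher in +R by 1.21 ± 0.15 and lower in R+LE, with a log2 fold change against +R of -0.54 ± 0.15 (adjusted p = 0.025). Myc, a transcription factor that raises ribosome production, was higher in +R by 0.89 and stood at 24.6 and 26.3 RPKM in -R, at 48.6 and 46.3 in +R, and at 42.8 and 45.02 in R+LE. Larp1 was at 30.8 and 33.1 RPKM in -R, at 36.4 and 37.8 in +R, and at 29.8 and 41.3 in R+LE, with an adjusted p of 0.29 in +R.

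Mitochondrial ribosomal proteins, which are encoded in the nucleus and form a separate ribosome, are given for comparison. Of 78 such genes, 34 (43.6%) were higher in +R and 0 lower, with a median log2 fold change of 0.35. In R+LE against +R, 8 of the 78 were lower and 0 higher, against 6.86% and 5.19% of all genes tested. An unadjusted p below 0.05 was reached by 26 of the 78, against 2707 of all 11595 genes tested. The median of the 78 was -0.25, close to the -0.22 of the cytosolic genes. The values of R+LE were below both +R libraries for 50 of the 78 and for 28 of the 85 cytosolic genes, where 29.5% of all genes tested were separated in this direction. Mrps6 was at 10.4 and 8.63 RPKM in -R, at 70.9 and 55.9 in +R, and at 35.4 and 32.8 in R+LE, with a log2 fold change of 2.67 ± 0.16 in +R and -0.87 ± 0.16 in R+LE against +R. Mrps35, Mrpl52 and Mrps34 were also lower in R+LE, with log2 fold changes against +R of -0.73, -0.72 and -0.69. The difference between the 2 sets was not tested.

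**Figure D5:**
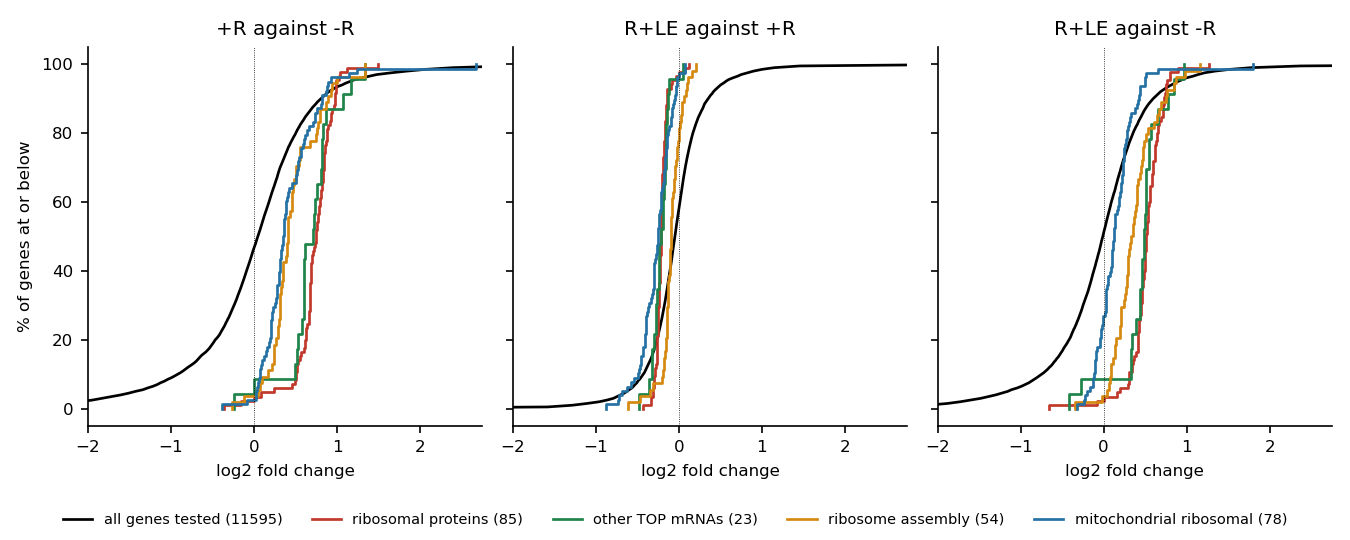
Curves give the percent of genes at or below each log2 fold change in the 3 comparisons, for all 11595 genes tested and for 4 gene lists, with the number of genes in parentheses. In +R against -R the curves of the ribosomal proteins and other TOP mRNAs lie farthest to the right, with medians of 0.74 and 0.71. In R+LE against +R the cytosolic and mitochondrial lists have close medians, at -0.22 and -0.25. Their spread differs, with quartiles at -0.25 and -0.18 for the cytosolic list and at -0.39 and -0.15 for the mitochondrial list.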

How the data were processed

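Reads of 100 bp were aligned by the authors to mm10, with TopHat in the study's methods and HISAT2 in the submitters' processing notes, and HOMER counted reads on exons of either strand with 1 transcript kept per gene. Versions are not given in the sources used here. The deposited values are RPKM, under titles that say FPKM, together with transcript length. All 26 symbols that a spreadsheet had turned into dates were restored, and 0 columns of sample values were left unused. Groups and replicate numbers came from the sample titles.

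Genes that reached a mean of 0.5 RPKM were tested as log2(RPKM + 0.5), so fold changes of low genes are understated. limma 3.58.1 in R 4.3.3 fitted the 3 groups together with a variance trend and Benjamini-Hochberg adjustment over 11595 genes, and genes were called at an adjusted p below 0.05. Scripts were tested on simulated data. Depth was recovered from RPKM steps, and all values checked were whole within 0.1 read. Limits for counts of 0 cover counting error only. With 2 against 2 libraries no exact test of 1 gene can pass, and p-values measure the spread between these libraries, which may be technical.

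The ribosomal protein genes and the other lists were chosen with earlier results of these data known. Named genes are the 5 highest and 5 lowest in mean RPKM, stalk and 5S proteins, Rpsa, Rps6, Rps27a, paralogs with main forms, up to 5 called genes with the largest change in each direction and comparison, and those at 2-fold or more. Rpl38 was added after its values were seen. Some genes that the rule takes are counted but not reported here by name. Alternatives were pseudocounts of 0.1 and 1, other filters, no variance trend, only the compared groups, centring, quantile normalization, Rn45s left out, the length trend removed, a replicate block, voom on recovered reads and each library left out. Subsets of members, runs of 8 bases and CGGAAG were added after seeing the data. Python 3.11.15 with pandas 2.3.3, numpy 2.4.6, scipy 1.17.1 and matplotlib 3.10.9 handled tables and figures.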

Additional observations from a re-analysis of the deposited data

How the results depend on the processing

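For +R against -R, the number of genes called higher ranged from 19 to 80 and that at 2-fold from 2 to 13 when 1 library was left out, with a median of 0.68 to 0.80. For R+LE against +R, the number lower ranged from 0 to 15 and the median from -0.41 to -0.020. For R+LE against -R, 1 to 80 genes were higher, 0 to 1 lower and 0 to 2 at 2-fold, with a median from 0.30 to 0.73. Without a filter on low values 31 and 3 genes were higher than in -R, in +R and R+LE, and 0 were lower in R+LE. With Rn45s left out 11 genes reached 2-fold in +R and 65 in R+LE exceeded -R. With the length trend removed, +R had a median of 0.54, 2 genes at 2-fold and 1 lower, and 66 in R+LE exceeded -R. Quantile normalization gave a median of 0.48 and 1 gene at 2-fold in +R, 2 lower when R+LE was compared with +R, and 69 higher when it was compared with -R. In that last comparison centring gave 72 higher, and voom 72 higher and 0 lower. The causes were not tested. Shares of all genes tested were not counted for any of these fits.

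Replicate numbers were not taken as pairs, since the labels name nothing shared and correlations of same-numbered deviations over all genes tested were -0.046, 0.25 and 0.11. Of the 85 genes, 80, 55 and 83 were lower in replicate 2 in -R, +R and R+LE, against 40.1%, 65.3% and 69.1% of all genes tested. With the number as a block, 80, 0 and 63 genes were higher in the 3 comparisons in the order above, and the medians were 0.74, -0.22 and 0.52.

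Of 30 named genes, some with values near 0 changed sign. For +R against -R, Rpl7l1 went to 0.059 without Rn45s, 0.0013 with centring and 0.082 with quantile normalization, and with the length trend removed Rpl37rt went to -0.18 and Rps27l to -0.10. For R+LE against +R, with the length trend removed, Rpl38 went to 0.084, Rpl11 to 0.070, Rps27l to 0.092 and Rpl36a to 0.0023. There, with quantile normalization, Rpl38 went to 0.16, Rpl11 to 0.070, Rps27l to 0.019, Rps4x to 0.053 and Rps27rt to 0.00047, and Rpl38 to 0.015 with centring. For R+LE against -R, Rps27l went to -0.0089 with the length trend removed. Leaving out 1 library gave 23 further sign changes. In +R against -R the range was -0.11 to 0.11 for Rpl7l1 and -0.19 to 0.35 for Rpl37rt. In R+LE against +R it was -0.44 to 0.015 for Rpl28, -0.15 to 0.155 for Rpl7l1, -0.12 to 0.27 for Rps19bp1, -0.10 to 0.35 for Rpl37rt, -0.29 to 0.10 for Rpl11, -0.50 to 0.038 for Rpl22l1, -0.28 to 0.12 for Rps27l, -0.36 to 0.0063 for Rpl36a, -0.33 to 0.0024 for Rps4x, -0.39 to 0.056 for Rps20 and -0.25 to 0.18 for Rpl38. In R+LE against -R it was -0.15 to 0.15 for Rpl7l1, -0.28 to 0.12 for Rps19bp1, -0.067 to 0.47 for Rpl37rt and -0.044 to 0.36 for Rps27l.

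Depth does not limit these abundant genes, except for Rpl37rt and Rps4l. The spread between 2 libraries a group does.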
